A study of Homo sapiens and Mus musculus with 20 samples.

Results

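The regions described here were the stretches of the genome of SW480 cells, an established human colorectal adenocarcinoma line, whose ATAC-seq peak switched in the same direction with both short-chain fatty acids tested, sodium propionate (NaPr) and sodium butyrate (NaBu). The peak intervals of the 12 SW480 libraries were merged into 252173 regions, and members were chosen by the presence of a peak alone. A region was called gained when all 6 treated libraries held a peak and none of the 6 untreated libraries did, and lost when the reverse held. By this rule 506 regions were gained, which is 0.201% of all merged regions, and 144 were lost, which is 0.0571%. Since presence in these same libraries selected the members, their own levels are given as a description without a test.

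SW480 cells had been exposed to 10 mM NaPr or to 1 mM NaBu for 12 to 16 h, and each compound had its own untreated cells, with 3 libraries in each of the 4 groups. All libraries came from the same line and were made with the Omni-ATAC protocol from 50000 viable cells. Doses differed between the compounds, the untreated libraries were labelled by compound, and whether the experiments were run together is not stated. Values of NaPr and NaBu are therefore given side by side, and compound and experiment cannot be told apart. The libraries are replicates as the labels number them, and whether they came from separate cultures is not stated, so their spread may be technical.

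ATAC-seq uses the Tn5 transposase to cut and tag DNA that is not wrapped tightly in nucleosomes, and a peak is a place where cuts pile up above the local background. Propionate and butyrate are made in the colon by bacteria that ferment fibre. Both inhibit histone deacetylases, and butyrate is also burned as a fuel by the cells that line the colon. In a bulk culture, a region open in fewer cells and a region less open in each cell cannot be told apart.

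Sequence is shown first, because 2 short motifs took other shares in the gained or lost regions than in the regions that held a peak in every library. The next lines show 3 gained regions of high rank that held the AP-1 motif, TGACTCA or its reverse complement TGAGTCA, the site of FOS and JUN dimers. Each gives 41 bases of the plus strand of GRCh38 with the motif in capitals.
STRA6 (chr15:74193385-74193425): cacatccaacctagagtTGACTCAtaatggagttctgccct
ST3GAL3 (chr1:43929740-43929780): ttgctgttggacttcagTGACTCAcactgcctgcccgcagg
SCN4B (chr11:118142246-118142286): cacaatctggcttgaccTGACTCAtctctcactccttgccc

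Among the lost regions the motif CACCTG, or CAGGTG on the other strand, was the most frequent of those searched. It is bound by ZEB and SNAI repressors and by other E-box factors. It is shown in 40 bases of the plus strand for 3 of the leading lost regions. The region near GRHL1 is printed over 200 bases because it held 7 copies in a row. Motifs were searched in 200 bp around the summit, which can run past a narrow region. The BCL9L site began at the last base of its region and ran past its end.
BCL9L (chr11:118911345-118911384): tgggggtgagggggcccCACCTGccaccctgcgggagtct
CD9 (chr12:6218571-6218610): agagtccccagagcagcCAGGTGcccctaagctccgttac
VASP (chr19:45508575-45508614): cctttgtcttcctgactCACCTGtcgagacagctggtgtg
GRHL1 (chr2:10011739-10011938): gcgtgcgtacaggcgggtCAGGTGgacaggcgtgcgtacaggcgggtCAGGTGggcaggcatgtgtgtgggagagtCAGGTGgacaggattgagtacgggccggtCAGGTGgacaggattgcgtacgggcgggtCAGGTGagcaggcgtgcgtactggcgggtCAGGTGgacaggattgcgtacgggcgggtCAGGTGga

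The peak lists of the 12 libraries were alike in size, with 108442 to 144398 intervals and 96813 to 120072 merged regions holding a peak. Each list ended near the same number of lines, so its weakest peak differed between libraries, from a −log10 p of 3.37 to 6.53 in the NaPr experiment and of 7.25 to 9.38 in the NaBu experiment, and a missing peak means a peak below that library's own limit. Read totals were not analysed here, so depth is unknown. A peak lay at EPCAM, CDH1, KRT8, KRT18, KRT19, VIL1, CDX2 and HNF4A, 8 of 8 markers of colon epithelium, in all 12 libraries. Of the markers of other cell types, PTPRC, CD3E and COL3A1 had no peak in any library, while CD14, PECAM1, COL1A1, PDGFRA and GFAP had one in all 12.

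The regions switched by both compounds had weak to moderate peaks. The deposited fold enrichment, the pileup at the summit over the local background, had a median over the gained regions of 4.64, 4.65 and 5.27 in the 3 NaPr libraries and of 5.93 to 6.06 in the 3 NaBu libraries. The lost regions had medians of 3.48, 3.14 and 3.40 in the untreated libraries of the NaPr experiment and of 3.95, 3.84 and 3.82 in those of the NaBu experiment. The median over the 50620 regions with a peak in all 12 libraries was 8.58 to 11.8 over the 12 libraries, above every one of these values. Members were also narrower than those regions, with a median width of 532 bp for gained and 455 bp for lost regions against 1096 bp. The median was 368 bp for all merged regions, below both sets. It was 574 bp for other regions with a peak in exactly 6 libraries.

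**Figure D1:**
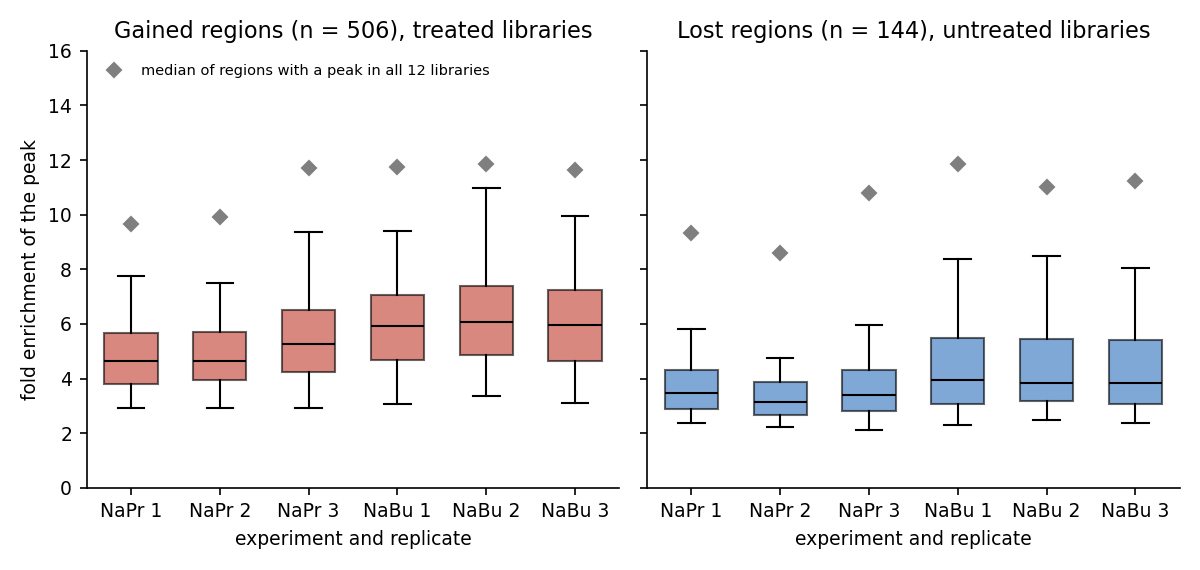
Deposited fold enrichment (y axis) of the gained regions in the 6 treated libraries and of the lost regions in the 6 untreated libraries. Boxes span the quartiles, whiskers the 5th to 95th percentile, and diamonds mark the median of the regions with a peak in all 12 libraries, which lay above both sets of medians (4.64 to 6.06 for gained regions and 3.14 to 3.95 for lost regions).

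To set peaks of different lists on one scale, each region was given the percentile rank of its −log10 p among all merged regions of that library, with regions without a peak at 0. The weakest of the 6 ranks of a member had a median of 62.6 over the gained regions (range 54.6 to 86.3) and of 65.4 over the lost regions (range 53.8 to 84.2). In all 6 libraries holding the peak, 78 gained regions (15.4%) and 21 lost regions (14.6%) were stronger than the weakest peak of the most stringent list. Many regions missed the rule by a single library: 704 lacked the peak in 1 treated library and 603 held it in 1 untreated library, beside 506 gained regions. Around the lost regions, 213 lacked the peak in 1 untreated library and 180 held it in 1 treated library.

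The gained region with the highest weakest-library rank lay 7921 bp from the start of PIANP, which encodes a ligand of an inhibitory immune receptor (chr12:6708736-6710544, GRCh38, over an exon of the small RNA pseudogene RNU6-781P). Its fold enrichment was 7.84, 8.27 and 11.6 in the NaPr libraries and 10.0, 13.2 and 10.0 in the NaBu libraries. The region 12586 bp before COL26A1, which encodes a collagen chain, had values of 8.60, 5.49 and 6.33 with NaPr and of 9.24, 6.67 and 8.80 with NaBu (chr7:101349021-101350289). In both regions the values of the compounds overlapped.

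SAT1 encodes the rate-limiting enzyme of polyamine breakdown. A gained region lay 179 bp past the end of the gene and 1129 bp from the nearest of its annotated starts (chrX:23786389-23788014). It had fold enrichments of 4.63, 4.29 and 5.76 with NaPr and of 3.56, 4.04 and 3.84 with NaBu, so the NaPr libraries were the higher ones in fold enrichment. The region at the start of PARP16, an ADP-ribosyltransferase of the endoplasmic reticulum, showed the same order, with 6.01, 5.34 and 6.83 against 4.39, 4.46 and 4.34 (chr15:65300428-65300903). FGF18, which encodes a secreted growth factor, was the nearest gene to a region 118408 bp away with 5.05, 6.59 and 6.49 against 8.05, 7.27 and 7.44 (chr5:171538055-171538402), and here the NaBu libraries were higher in fold enrichment while the ranks overlapped (82.0, 86.4 and 84.8 with NaPr, 84.1, 81.4 and 83.2 with NaBu). Over the 506 gained regions the mean fold enrichment was higher with NaBu in 384, while the mean rank was higher with NaPr in 308, so which compound was higher depended on the scale.

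A gained region over a coding exon of STRA6, the receptor for cellular uptake of retinol, had values of 5.30, 4.25 and 5.19 with NaPr and of 7.64, 6.42 and 6.95 with NaBu (chr15:74193266-74193915). One over a coding exon of ST3GAL3, a sialyltransferase, had values of 5.46, 5.09 and 5.25 with NaPr and of 3.95, 4.16 and 4.01 with NaBu (chr1:43929611-43930026). Both held AP-1 motifs, and the compound with the higher fold enrichment differed between them. The remaining gained regions among the leading 12 lay near RTN2 (a reticulon), ACY1 (an aminoacylase), CACNA1A (a calcium channel subunit), PPP1R12C (a myosin phosphatase subunit) and THOC2 (a subunit of the mRNA export complex).

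The lost region with the highest weakest-library rank lay at a start of BCL9L, a coactivator of β-catenin (chr11:118911115-118911362). In untreated cells its fold enrichment was 2.56, 2.26 and 2.44 in the NaPr experiment and 2.88, 2.69 and 2.79 in the NaBu experiment, below the median of the lost regions in each library. The region at a start of POU2F3, the transcription factor that defines tuft cells, had 4.12, 3.01 and 3.74 in the former and 8.36, 8.75 and 6.94 in the latter (chr11:120240096-120240545), which did not overlap. The lost region 876 bp from the start of ID1, an inhibitor of DNA binding that answers to BMP signals, had 2.79, 2.16 and 2.35 and then 2.50, 2.53 and 2.27 (chr20:31606165-31606300), which did overlap.

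Near GRHL1, a grainyhead-like epithelial transcription factor, the lost region with the tandem CAGGTG copies had 3.02, 2.95 and 3.17 in the NaPr experiment and 3.64, 3.81 and 3.51 in the NaBu experiment (chr2:10011498-10012043). The lost region in an intron of CD9, a tetraspanin, had 2.70, 2.48 and 2.72 and then 4.60, 3.85 and 3.90 (chr12:6218359-6218950). In both, the untreated cells of the NaBu experiment were higher. ZNF703 (a transcriptional repressor), PRKCD (protein kinase C delta), VASP and MYL12B (actin and myosin regulators), TRIM29, TACC3 and CLIP2 (the latter pair microtubule-binding proteins) were the other genes of the leading 12 lost regions.

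Because the rule used all 12 libraries, each library in turn was kept out of the choice and then examined. Of the regions chosen as gained on the other 11 libraries, 76.9% to 88.0% held a peak in the treated library kept out. Among all regions with the same number of peaks in the other 11 libraries, 50.7% to 68.5% did. This base was matched by the number of peaks and not by which groups held them. The chosen regions already held the same state in the other replicates of the group. A share above the base therefore cannot tell a pattern shared by both compounds from agreement among replicates of a group. In the untreated libraries kept out, 70.5% to 92.8% of the regions chosen as gained held no peak, against 59.8% to 78.9%. The first untreated NaPr library was below its own base, with 70.5% against 73.9%, and the third was close to it, with 77.8% against 76.5%.

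Lost regions chosen on 11 libraries held a peak in the untreated library kept out in 75.4% to 86.7% of cases, against 42.1% to 62.8%. They lacked one in the treated library kept out in 68.9% to 91.1%, against 48.8% to 72.2%. The third treated NaPr library was the exception below its base, with 68.9% against 72.2%.

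**Figure D2:**
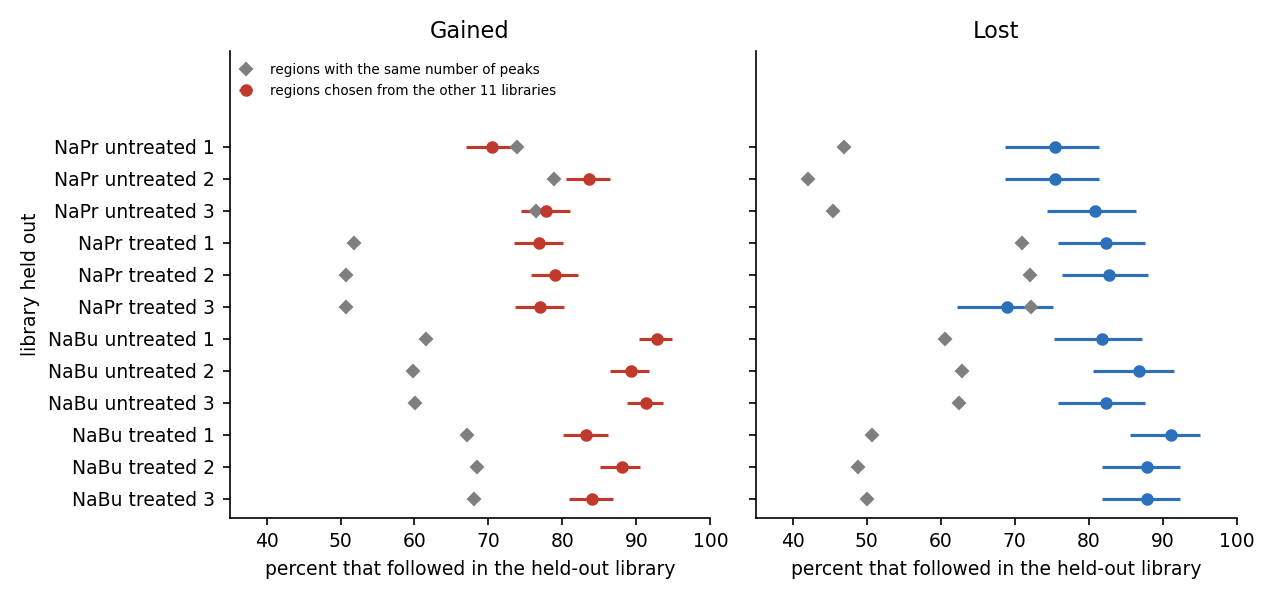
Share of regions (x axis, percent) chosen on 11 libraries that showed the same state in the library kept out, by library, with exact 95% binomial intervals. The other marks give the share among all regions with the same number of peaks in the 11 libraries, and most libraries lie above it, with the first untreated NaPr library (70.5% against 73.9%, gained) and the third treated NaPr library (68.9% against 72.2%, lost) below.

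NaPr gained 3656 regions and NaBu 7929 against their own untreated libraries, and the 506 shared regions were 13.8% of the former and 6.38% of the latter, where 3.14% of all regions were gained with NaBu and 1.45% with NaPr. NaPr lost 1860 regions and NaBu 4599, of which the 144 shared regions were 7.74% and 3.13%, where 1.82% of all regions were lost with NaBu and 0.738% with NaPr. The experiments share no library. Of the regions gained with NaPr, 40.1% held more peaks in treated than in untreated libraries of the NaBu experiment and 1.59% held fewer, against 17.8% and 11.2% of all regions. Regions lost with NaPr held fewer peaks after NaBu in 25.3% and more in 4.73%. In the other direction, regions gained with NaBu held more peaks after NaPr in 37.1% and fewer in 4.53%, against 24.8% and 24.4% of all regions. Regions lost with NaBu held fewer in 18.4%, which is below the 24.4% of all regions, and more in 3.35%.

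Gained regions lay near gene starts less often than merged regions as a whole, about as often as other regions with a peak in exactly 6 libraries, and lost regions lay near them more often than these. Within 1 kb of the start of a protein-coding gene were 51 gained regions (10.1%, exact 95% binomial interval 7.60% to 13.04%) and 42 lost regions (29.2%, 21.9% to 37.3%). The shares were 33.0% for regions with a peak in all 12 libraries, 14.7% for all merged regions and 10.8% for the 16484 other regions with a peak in exactly 6 libraries. The median distance to the nearest start was 14492.5 bp for gained and 3810.5 bp for lost regions, against 7446 bp and 17014 bp. With every list held to the limit of the most stringent one, the rule found 55 lost regions, of which 54.5% were near a start, against 38.6% of the regions with a peak in all 12 libraries at that limit. With the 50000 strongest intervals of each list it was 31.6% against 46.1%, so whether lost regions lay near starts more or less often than those regions depended on where the lists ended. Introns held 218 gained regions (43.1%) and 55 lost regions (38.2%), and 189 (37.4%) and 35 (24.3%) were intergenic.

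**Figure D3:**
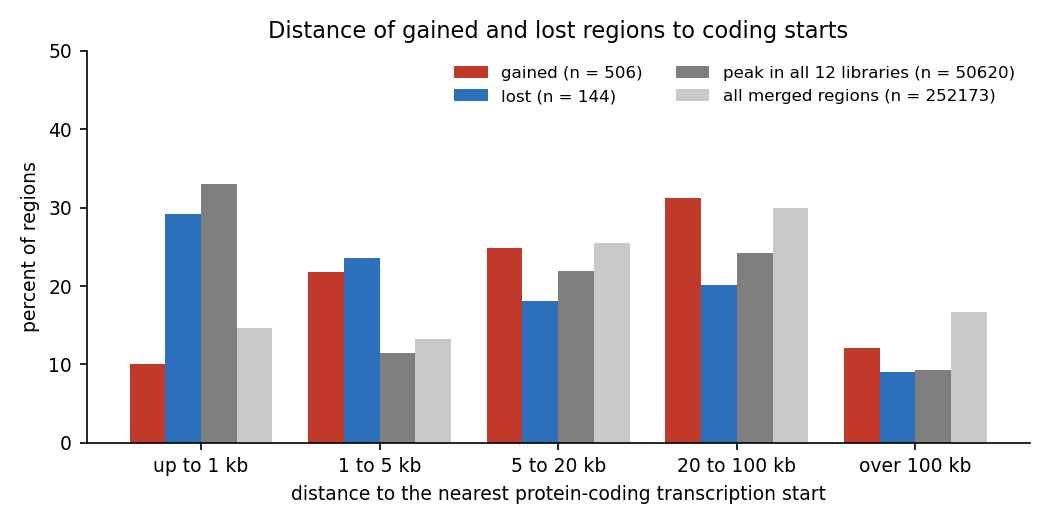
Share of regions (y axis, percent) in 5 classes of distance to the nearest protein-coding start (x axis), for gained regions, lost regions, regions with a peak in all 12 libraries and all merged regions. In the class nearest to a start the bars stand at 10.1%, 29.2%, 33.0% and 14.7%.

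Base composition followed the same order. The median GC content of the 200 bp around the summit was 49.2% for gained and 54.5% for lost regions, against 56.0% for regions with a peak in all 12 libraries, 51.0% for all merged regions and 48% for other regions with a peak in exactly 6. Windows rich in CpG, with a GC content over 50% and an observed to expected CpG ratio over 0.6, made up 1.78% of gained and 20.8% of lost regions, against 28.3% and 7.97%. Part of the members lay close to stronger regions: 70 gained regions (13.8%) and 55 lost regions (38.2%) lay within 500 bp of a region with a peak in all 12 libraries. Near starts these were 22 of 51 gained and 33 of 42 lost regions.

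Motifs were searched on both strands of the same 200 bp. This window can run past the ends of a narrow region, so a motif counted for a region may lie just outside it. TGACTCA lay in 132 gained regions (26.1%, exact 95% binomial interval 22.3% to 30.1%) and in 9 lost regions (6.25%, 2.90% to 11.5%), against 15.7% of regions with a peak in all 12 libraries, 16.0% of other regions with a peak in exactly 6 and 12.8% of all merged regions. CACCTG, singled out after its share was seen, ran the other way, with 69 gained regions (13.6%, 10.8% to 16.9%) and 52 lost regions (36.1%, 28.3% to 44.5%) against 22.7% of regions with a peak in all 12 libraries and of all merged regions and 22.3% of those with a peak in exactly 6. Both motifs lay in the same window in 18 gained and 3 lost regions. In 23 gained and 4 lost regions TGACTCA shared the window with TGACNNNGC, the site of NRF2 with small MAF proteins, whose first letters can be the same bases.

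With each list shortened to its 50000 strongest intervals, the lost regions by the same rule held TGACTCA in 14.1%, against 13.98% of the regions with a peak in all 12 libraries, so its lower share in lost regions depended on where the lists ended. In the gained regions it was then 28.5%. The share of CACCTG in gained regions was then 17.4% (12.1% to 23.95%), an interval that holds the 21.8% of regions with a peak in all 12 libraries. At the common limit named above CACCTG lay in 25.5% of the 55 lost regions, against 22.2%. With the lists whole, the differences were also seen among windows of like GC and away from starts. With GC between 45% and 55%, TGACTCA lay in 81 of 291 gained regions (27.8%) and 5 of 56 lost regions (8.93%), against 22.0% of regions with a peak in all 12 libraries. CACCTG lay in 13.4% and 41.1%, against 22.2%. Over 1 kb from a start, the shares of TGACTCA were 27.7% and 6.86%, against 20.4%, and those of CACCTG 13.2% and 38.2%, against 24.7%. TGACTCA lay within 25 bp of the summit in 52 of the 132 gained regions that held it (39.4%), and regions with a peak in all 12 libraries gave 33.3%.

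The GC box of promoters and the motif of insulators were rarer in the gained set than in the regions with a peak in every library. CCCCGCCC, the GC box of SP factors, lay in 12 gained (2.37%) and 12 lost regions (8.33%), against 11.1% of regions with a peak in all 12 libraries and 2.37% of other regions with a peak in exactly 6. The motif of CTCF, the insulator protein, lay in 4 gained (0.791%) and 2 lost regions (1.39%), against 6.41% and 1.58%. In the GC box and the CTCF motif the gained regions were thus like the other regions present in part of the libraries. The CCAAT box of NF-Y was not rarer, in 21 gained regions (4.15%) against 3.94% and 2.70%. GCAATAAA, the site of the intestinal factors CDX1 and CDX2, was more frequent, in 10 gained regions (1.98%, 0.952% to 3.60%) against 0.571%, but other regions with a peak in exactly 6 libraries gave 1.08%, within that interval.

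**Figure D4:**
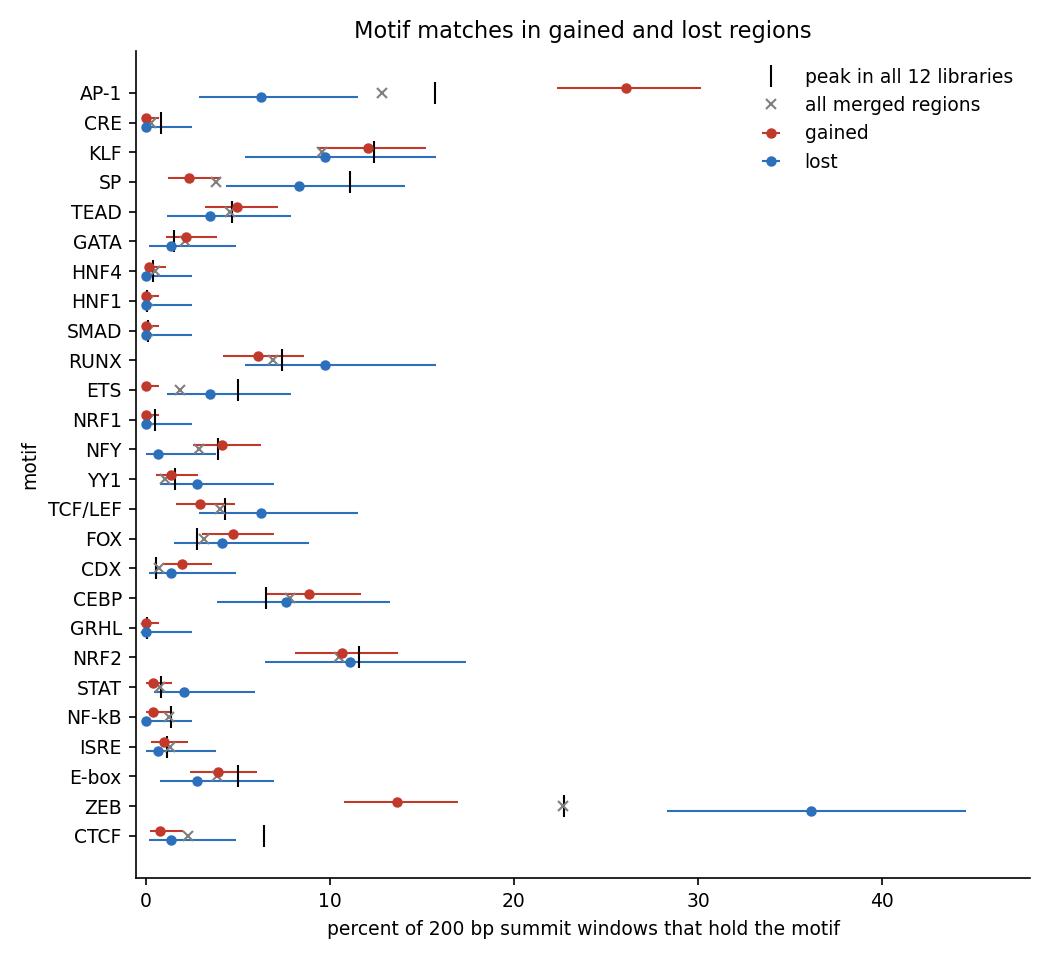
Share of regions (x axis, percent) that hold each of the 26 motifs (y axis) in the 200 bp around the summit, for gained and lost regions, with exact 95% binomial intervals for counting error only. Ticks and crosses mark the regions with a peak in all 12 libraries and all merged regions, and TGACTCA (26.1% of gained, 6.25% of lost) and CACCTG (13.6% and 36.1%) show the widest gaps between the sets.

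By overlap with a gene, or by the nearest coding start where there was none, the gained regions belonged to 482 genes and the lost regions to 142, with 15 genes in both. Only 19 genes had 2 or more gained regions, led by NR2F2 and MYC (4 each) and PTPRJ (3), with SELENOW and RIPK2 among those with 2. ID1 and HDAC4 were the 2 genes with 2 lost regions. NR2F2 encodes an orphan nuclear receptor, and a lost region lay at its start (chr15:96332991-96333689). A gained region lay 1393 bp away in its coding exon (chr15:96334556-96335071), and 3 more lay 39904, 95596 and 203289 bp from its start.

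MYC, the proliferation factor under WNT control, showed the same arrangement over a longer distance. The lost region lay 1 bp from its start, with fold enrichments of 1.72, 1.63 and 1.86 in the untreated NaPr libraries and of 1.66, 1.48 and 1.55 in the untreated NaBu libraries. These were the lowest means of the lost set in both experiments. Gained regions lay 50268, 237484, 486779 and 630615 bp away.

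FOSL2 encodes a FOS-family subunit of AP-1. A lost region lay 482 bp from its start (chr2:28393340-28393586) and a gained region in its intron at 11051 bp (chr2:28406562-28407088). The gained region had fold enrichments of 3.21, 2.86 and 3.24 with NaPr and of 4.36, 4.42 and 3.71 with NaBu. COL26A1 had its gained region before the gene and a lost region 59367 bp from its start, in an intron. The gene FOSB had both as well within 50 kb, since the gained region near RTN2 lay 9165 bp and the lost region near VASP 33182 bp from it.

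Gained regions within 50 kb of each other formed 13 groups with 29 regions, the largest with 3 regions. One such group spanned PTPRJ (chr11:47941464-47995973), a receptor tyrosine phosphatase, and a second the stretch with PIANP and COPS7A (chr12:6708736-6720288). Lost regions formed 3 groups with 6 regions. In 8 groups gained and lost regions lay together, such as the CD9 intron and the gained regions toward VWF.

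Gene lists were counted by the genes with a member within 50 kb. Of 20007 protein-coding genes, 900 (4.50%) had a gained and 312 (1.56%) a lost region. The counts were not adjusted for gene length, and a longer gene spans more sequence. Median length was 27466 bp for all coding genes. Over the lists it ran from 12342 bp for AP-1 and small MAF genes to 94763 bp for adhesion and actin genes. For ion channels and transporters it was 91803 bp and for the TGF-β and SMAD pathway 69601 bp. Of 17 AP-1 and small MAF genes, 3 had a gained region (FOSL2, MAFK, FOSB) and 3 a lost one (FOSL2, NFE2L2, FOSB). NFE2L2 encodes NRF2, the regulator of the oxidative stress response, and its lost region in an intron had mean ranks of 70.7 ± 4.19 and 65.4 ± 2.91 (SD, n = 3 each) in the untreated NaPr and NaBu libraries.

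Of 28 genes of the TGF-β and SMAD pathway, 3 had a lost region (SKI, SMAD7, ID1) and 2 a gained region (TGFBR3, BMPR2). SKI and SMAD7 restrain the pathway, and TGFBR3 and BMPR2 are receptors. The region at the start of SMAD7 had mean ranks of 71.9 ± 1.32 and 75.7 ± 5.53 in untreated cells, and the one in an intron of TGFBR3, which held both TGACTCA and CACCTG, had 72.7 ± 3.96 with NaPr and 75.3 ± 1.86 with NaBu (SD, n = 3 each). Of 22 WNT targets and stem cell genes, 3 had a lost region (MYC, AXIN2, ZNRF3) and 1 a gained region (MYC). AXIN2 and ZNRF3 are feedback inhibitors of WNT signalling, and the region at the start of AXIN2 had mean ranks of 83.2 ± 3.09 and 70.8 ± 3.40 (SD, n = 3 each), the NaPr experiment being the higher.

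Of 25 genes of histone deacetylases, acetyltransferases and acetyl readers, 3 had a lost region (HDAC4, HDAC7, HDAC10) and 2 a gained one. Those of HDAC4 lay inside the gene, and the one counted for HDAC10 lay 47957 bp from it in an intron of PLXNB2. Of 30 genes of epithelial differentiation, 1 had a gained region (MUC2, the main secreted mucin of the colon) and 0 a lost region. The MUC2 region lay 2359 bp past the end of the gene and 13100 bp from its nearest annotated start. It had mean ranks of 73.6 ± 3.79 with NaPr and 66.6 ± 1.77 with NaBu (SD, n = 3 each).

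A gained region was found for 3 of 36 adhesion and actin genes and for 3 of 27 ion channels and transporters. They lay in introns of MYO10, an unconventional myosin, and of PARVA, which links integrins to actin, and within 50 kb of the channel genes TRPV6 and KCNN4, among others. The PARVA region and the TRPV6 region, the latter 31969 bp from its gene, had a weakest rank of 54.6, the lowest in the gained set. Of the other lists, gained regions were found for 1 of 29 genes of fatty acid oxidation and PPAR (ACSL3), 1 of 41 cell cycle genes (E2F3) and 1 of 14 Kruppel-like factors (KLF13). The E2F3 region lay 14601 bp from that gene, with CDKAL1 as the nearest start. The lost region counted for KLF11 was the one given above near GRHL1, 30806 bp from KLF11. Another lost region lay at the start of PXN, which encodes the adhesion protein paxillin. Of 18 genes named by the study, which it picked from these or related samples, 4 had a gained region (COL26A1, MYC, DHRS2, SAT1) and 4 a lost one (CXXC5, COL26A1, ZNF703, MYC). The DHRS2 region lay 46232 bp from that gene, with JPH4 as the nearest start. With counts this small the lists are described, and no list was tested.

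Regions that kept their peak in all 12 libraries were not used by the rule, so the surroundings were examined in those within 25 kb of a member. The members were chosen with the treated and untreated labels of these same libraries. Of the lost regions, 38.2% lay within 500 bp of a region with a peak in all 12 libraries. The tests of neighbours are therefore not independent of the choice of members. There were 1034 near a gained and 544 near a lost region, leaving out 23 near both. A fit with limma on the percentile ranks of every region that held a peak in 2 or more libraries called a region at a Benjamini-Hochberg adjusted p under 0.05. Near lost regions, 24 were higher (4.41%) and 40 lower (7.35%) with NaPr, beside 5.62% and 5.38% of all regions with a peak in every library. With NaBu 79 were higher (14.5%) and 102 lower (18.8%), beside 15.3% and 13.3%. Near gained regions, 77 were higher (7.45%) and 73 lower (7.06%) with NaPr, and 181 (17.5%) and 163 (15.8%) with NaBu, so both directions stood a little above the background. By both compounds, 20 neighbours of lost regions (3.68%) were lower and 11 (2.02%) higher. For neighbours of gained regions, 35 (3.38%) were lower and 45 (4.35%) higher. Of all regions with a peak in every library, 2.43% were lower and 2.91% higher with both.

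The median rank of these neighbours was taken in each library relative to the median of all regions with a peak in every library, and compared over libraries with an exact two-sided permutation test of treated and untreated labels within each experiment, whose smallest p is 0.005. Near lost regions the value fell from 1.25 ± 0.101 to 0.655 ± 0.0956 with NaPr and from 1.38 ± 0.174 to 0.652 ± 0.0116 with NaBu (SD, n = 3 each), a change of -0.663 percentile points with an exact p of 0.005. All 6 treated libraries lay below the untreated libraries of their experiment. The labels were permuted with the neighbours held fixed, so the exact p-values do not account for the choice of members by the same labels. It was not called when peaks were ranked by fold enrichment (exact p 0.31) or when only neighbours within 10 kb were used (exact p 0.515), in both cases with the same sign. Near gained regions the change was -0.172 with an exact p of 0.025, which turned to 0.0445 (exact p 0.61) without neighbours within 1 kb of a start and was called in 3 of 12 runs that each left out 1 library, so neither its direction nor its call held.

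**Figure D5:**
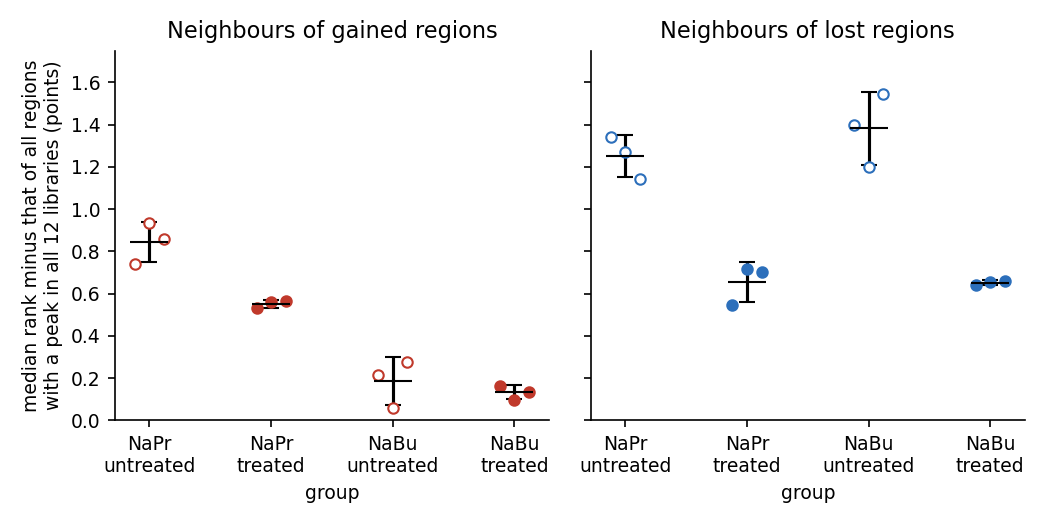
Median percentile rank of the regions with a peak in all 12 libraries that lay within 25 kb of a gained or lost region, relative to all such regions (y axis, percentile points), by group (x axis). Points are libraries and bars the mean ± SD over 3, and near lost regions the treated libraries (0.655 with NaPr, 0.652 with NaBu) lie below the untreated ones (1.25 and 1.38).

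The neighbours named here were picked after their values were seen, from those with the largest changes called with both compounds in the direction of their member. Neighbours called in the other direction are counted above and are not named. Near the lost region of CXXC5, which encodes a zinc finger protein that restrains WNT signalling, a region 20347 bp away in the same gene (chr5:139676574-139678171) fell from a rank of 93.8 ± 0.692 to 83.7 ± 1.8 with NaPr and from 92.7 ± 1.49 to 84.1 ± 2.1 with NaBu (SD, n = 3 each). Its limma adjusted p-values were 0.00063 and 0.000876. A region in an intron of PTPRN2, a phosphatase-like protein of secretory granules, fell from 87.9 to 72.2 and from 83.7 to 59.5, with limma adjusted p-values of 0.00123 and 1.76e-05. The region at the start of S100A16, a calcium-binding protein, lay 70 bp from a lost region and fell from 91.0 to 80.9 and from 88.1 to 79.9, with limma adjusted p-values of 0.0102 and 0.0133.

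Near gained regions, a peak between genes 47146 bp from KPNA3, a nuclear import factor, rose from 78.7 to 92.3 with NaPr and from 74.7 to 92.2 with NaBu, with limma adjusted p-values of 0.00263 and 0.000179. A region at the start of LYPD5 rose from 79.6 to 90.8 and from 74.2 to 86.9 (limma adjusted p 0.00993 and 0.00183). One near TMPRSS4, a membrane serine protease, rose from 88.6 to 98.0 and from 77.0 to 90.4 (limma adjusted p 0.00412 and 0.00013). A region 255 bp from the gained region at 237484 bp from MYC rose from 80.4 to 87.7 and from 81.9 to 88.5 (limma adjusted p 0.00154 and 0.00137). The shared direction of these neighbours and their members was part of how they were picked.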

How the data were processed

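ATAC-seq of SW480 cells was taken from 12 of the 20 libraries, and the 8 libraries of mouse CT26 cells were not analysed here. Per the submitters' processing notes, the authors used bcl2fastq 2.17.1, cutadapt 1.9.1, Bowtie2 2.3.1 and MACS2 2.1.0 with GRCh38, in an ENCODE-type pipeline, and called peaks per library. The deposited narrowPeak columns used are fold enrichment (a ratio of summit pileup to local background) and −log10 p and −log10 q, and every list ended at 299022 to 299463 lines. The steps of the authors on Tn5 offset and multiply matching reads are not given in the sources used here.

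Intervals sharing at least 1 bp were merged (Python 3.11.15, pandas 2.3.3, numpy 2.4.6) and placed on GENCODE 44. The window around the summit had 200 bp. Percentile ranks were fitted, for every region that held a peak in 2 or more libraries, with limma 3.58.1 (R 4.3.3) over the 4 groups, with Benjamini-Hochberg adjustment, after a test on simulated data. Binomial intervals are exact, from scipy 1.17.1, at 95%, and cover counting error only. Plots were drawn with matplotlib 3.10.9. Named are the 12 gained and 12 lost regions with the highest weakest-library rank, the 5 genes with most regions of each kind, and list genes within 50 kb. The members, gene lists and motifs were chosen with earlier results of these data known. Alternatives changed the end of the lists, the merging, windows, distances, scale and libraries used. No repeat annotation was used. Some sequences and the values of some list genes are not reported here.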

Additional observations from a re-analysis of the deposited data

Results flagged for a closer look

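A small number of regions switched in opposite directions with the 2 compounds, and they are given because every treated library of one experiment moved against every treated library of the other. A peak appeared in the 3 NaPr libraries and vanished from the 3 NaBu libraries, each against its own untreated libraries, in 5 regions (0.00198% of all merged regions). The reverse was seen in 4 (0.00159%). By this choice the untreated libraries differed as well, with a peak in all 3 of one experiment and in none of the other. The difference was not tested, and these counts stand beside 506 regions gained and 144 lost with both.

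The 5 regions lay near HES4, SLC38A9, GTPBP2, TBC1D16 and BCL2L1. BCL2L1 encodes the survival protein BCL-xL, and the region in its intron (chr20:31708311-31709411) had a rank of 71.8 ± 3.81 in NaPr-treated and of 95.6 ± 0.227 in the untreated cells of the NaBu experiment (SD, n = 3 each). The latter was far above the other 4 regions, which had 66.3 to 69.3. The 4 regions of the reverse kind lay near TMEM196, FAM204A, PRKX and PLXNA3, with mean ranks of 65.1 to 70.3 in untreated cells of the NaPr experiment and of 64.5 to 75.1 in NaBu-treated cells.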

How the results depend on the processing

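Of 338 values under other settings, 295 stayed on their side of the threshold, within the error or, for counts and shares of called regions, within 1.5 times the value reported, and the cause of the changes was not tested. Settings for CACCTG and for the neighbours' median rank were added after seeing the data. With the 50000 strongest intervals there were 172 gained regions, 17.4% of gained regions held CACCTG (21.8% of regions with a peak in all 12 libraries), 14.1% of lost regions held TGACTCA and the GC of lost regions was 58%. With 100000 intervals there were 326 gained regions, 7.36% near a start. With a common limit there were 55 lost regions, with 54.5% near a start, a GC of 61% and CACCTG in 25.5%, and TGACTCA lay in 32.7% of gained regions. With summit windows there were 302 lost regions, 52.3% near a start. Within 2 kb of a start were 18.6% of gained and 39.6% of lost regions, and with starts of all genes 16.2% of gained regions lay within 1 kb. In 100 bp windows TGACTCA lay in 16.2% of gained regions and CACCTG in 8.10% of gained and 22.9% of lost regions, and in 400 bp windows these were 32.0%, 26.5% and 48.6%, where regions with a peak in all 12 libraries gave 9.97% and 13.02%, then 19.1% and 37.0%.

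The change near gained regions became positive with 100000 intervals (0.0675, exact permutation p 0.675), summit windows (0.0364, p 0.67) and without neighbours near starts (0.0445, p 0.61), and was not called with joined intervals (-0.0827, p 0.475) or 100 kb (-0.0345, p 0.635). Near lost regions it was not called within 10 kb (-0.124, p 0.515) or by fold enrichment (-0.463, p 0.31). Leaving out each library gave -0.241 to -0.0389 near gained regions (called in 3 of 12 runs) and -0.863 to -0.498 near lost regions (called in 12 of 12). The share of neighbours of lost regions called with NaPr was 6.80% by fold enrichment (6.86% over all regions with a peak in every library), 19.7% when only those regions were fitted (16.4%), and 7.81% to 13.5% over the left-out libraries, lowest without the second untreated NaPr library (8.73%). Same-numbered libraries correlated at -0.0113 to 0.0782, so the numbers were not taken as pairs. With the replicate block, 7.35% of neighbours of gained and 6.07% of those of lost regions were called with NaPr, and 26.1% of both with NaBu, beside 5.80% and 22.4% of all regions with a peak in every library. With 3 libraries a group and no read totals, a missing peak may be one just past the end of a list.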

Other observations

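The regions gained or lost with only one compound, which share no member with the sets above, were counted for the same features. TGACTCA lay in 27.1% of the 3150 regions gained with NaPr only and in 22.7% of the 7423 gained with NaBu only, beside 26.1% of those gained with both. CACCTG lay in 30.9% of the 1716 regions lost with NaPr only and in 36.3% of the 4455 lost with NaBu only, beside 36.1% of those lost with both. Within 1 kb of a start were 7.65% and 8.27% of the regions gained with one compound, and 18.2% and 25.3% of those lost with one, against 10.1% and 29.2% for both compounds.

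The summits of the compounds lay within 50 bp of each other in 67.8% of gained and 66.7% of lost regions, and in 69.6% of regions with a peak in all 12 libraries. Per 1000 merged regions there were 2.01 gained regions over the genome, 3.60 on chromosome 15 (26 regions) and 1.12 on chromosome 17 (14 regions). Lower values rested on few regions, with 0.811 on chromosome 21 (3 regions) and 0.978 on chromosome 22 (5 regions). Chromosome Y held 0 gained regions among 82 merged regions.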
